A study of Mus musculus with 6 samples.

Results

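The poly(ADP-ribose) polymerase (PARP) genes examined here are *Parp1*, *Parp2*, *Parp3*, *Parp9*, *Parp10*, *Parp11*, *Parp12* and *Parp14*, together with *Dtx3l*, whose protein is the partner of PARP9. These 9 genes were chosen by symbol among the 59485 genes of the expression table, and each was found once. *Parp10* shares its entry with *Plec*, so 8 of the 9 have a value of their own. Sciatic nerves were collected at postnatal day 4 (P4) from 3 control and 3 mutant mice, and each animal gave 1 RNA-seq library. The control libraries are labelled wild-type and the mutant libraries Ht-PA-Cre; Adar1fl/fl;R26R. The human tissue plasminogen promoter drives Cre recombinase in neural crest (NC) cells of these mutants and thereby removes the floxed parts of *Adar*, the gene of the RNA editing enzyme ADAR1. R26R is a YFP reporter that marks those cells and the cells derived from them, among them the Schwann cells (SCs) of the nerve. The whole nerve was sequenced, so endothelial cells, fibroblasts, perineurial cells, blood and adjoining muscle add to each value beside SCs, and these other cells, apart from NC derivatives, keep *Adar*.

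PARP enzymes split NAD+ and attach the ADP-ribose part to proteins or nucleic acids. PARP1 and PARP2 sense breaks in DNA and build long chains of ADP-ribose that recruit repair factors, PARP3 also acts at DNA breaks, and most of the other family members add single ADP-ribose units. PARP9, PARP10, PARP11, PARP12 and PARP14 and the ubiquitin ligase DTX3L are known as products of interferon-stimulated genes (ISGs) in many cell types, and their family relative ZC3HAV1 (also called PARP13 or ZAP) binds viral RNA without being an active enzyme.

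Values are read counts on the constitutive regions of each gene, divided by the size factor of the library, and are called normalized read counts here. They rest on 50938349 to 78250094 reads on genes per library, and the lowest count behind any value of the 9 genes was 145 reads (*Dtx3l*, control replicate 3). The targeted gene *Adar* had 1602, 2066 and 1133 normalized read counts in control replicates 1, 2 and 3 and 11768, 9311 and 9773 in mutant replicates 1, 2 and 3, which is 2.72 ± 0.20 higher on the log2 scale (standard error). This rise of the whole-gene value does not show the deletion in the genotype label, and its source was not tested. The table holds a single value per gene, which does not separate the deleted segment from the rest, so the libraries are named control-labelled or mutant-labelled, and a direction is only as sound as those labels. The nerve identity was checked on markers. The summed SC markers (6 genes, among them *Pmp22*) ranged from 1151494 to 1257945 normalized read counts in control-labelled and from 58303 to 219999 in mutant-labelled libraries, and none was at 0. *Pmp22*, a myelin gene, made up most of this sum, with 1087466 to 1192464 in control-labelled and 44309 to 195117 in mutant-labelled libraries. By RT-qPCR at P4, the paper reports lower *Pmp22* in mutant than in control sciatic nerves, which is the direction given by the labels here.

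Stretches of sequence upstream of *Parp11*, *Parp4*, *Parp3* and *Dtx3l* are given first, because the promoters were searched for the cores of both elements through which interferons act on genes. RefSeq windows (build GRCm38.p6) of 250 bases before to 50 bases after the transcription start were found for 6 of the 9 genes, namely *Parp1*, *Parp2*, *Parp3*, *Parp11* (with a second window), *Parp12* and *Dtx3l*. Both strands were searched for the interferon-stimulated response element (ISRE) core GAAANNGAAA and the gamma-activated site (GAS) core TTCNNNGAA. Among 32851 windows of this length, 3.44% held the first and 8.30% the second. Bases that lie in annotated exons are left out below, capitals mark matches, and each stretch reads 5′ to 3′ on the strand of its gene.

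*Parp11* had the only window of the 9 genes with a match, and it held both cores. The ISRE core lies on the reverse strand 44 to 35 bases before the start, and the GAS core overlaps it at 37 to 29 bases before the start. The stretch is chr6:127446590-127446839, plus strand.
Parp11: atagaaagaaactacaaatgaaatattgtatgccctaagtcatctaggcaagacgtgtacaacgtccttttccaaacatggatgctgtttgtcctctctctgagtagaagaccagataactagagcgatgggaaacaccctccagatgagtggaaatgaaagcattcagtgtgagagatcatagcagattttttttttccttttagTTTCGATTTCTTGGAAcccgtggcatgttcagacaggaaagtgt
*Parp4*, a family member outside the 9 genes, is shown because it held ISRE cores as well, 2 that overlap each other, from 150 to 135 bases before its start. The stretch is chr14:56575426-56575618, plus strand.
Parp4: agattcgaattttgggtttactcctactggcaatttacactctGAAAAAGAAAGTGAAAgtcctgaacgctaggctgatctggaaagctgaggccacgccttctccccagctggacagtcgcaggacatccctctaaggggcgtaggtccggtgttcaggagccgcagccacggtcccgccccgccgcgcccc
*Parp3* and *Dtx3l* are shown as genes without a match in the window. The stretches are chr9:106476950-106477199 on the minus strand and chr16:35939207-35939277 on the minus strand.
Parp3: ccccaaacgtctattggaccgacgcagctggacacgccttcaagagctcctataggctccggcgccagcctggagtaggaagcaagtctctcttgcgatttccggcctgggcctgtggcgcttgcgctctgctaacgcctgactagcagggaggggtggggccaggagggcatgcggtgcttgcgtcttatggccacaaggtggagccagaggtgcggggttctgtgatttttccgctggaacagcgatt
Dtx3l: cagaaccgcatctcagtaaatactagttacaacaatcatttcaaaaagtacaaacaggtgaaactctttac

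*Parp16*, another family member, held a GAS core that spans its start, and no other window of the family held either core. The search describes letters in these windows and nothing more. The windows of *Parp1*, *Parp2*, *Parp12* and the second window of *Parp11* are among those without a core. In this nerve, *Parp4*, whose window holds 2 ISRE cores, rose by less than 2-fold (log2 fold change 0.73). *Parp11*, with both cores, and *Parp3*, *Parp12* and *Dtx3l*, with no match in the window, rose by more than 2-fold. Only the bases of these windows were searched, and a link between cores and fold changes was not tested. Sequences of *Parp9*, *Parp10* and *Parp14* are not shown.

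The comparison of mutant-labelled with control-labelled libraries asks which genes of the nerve change when *Adar* is removed from NC cells. The threshold followed that of the study, a p of at most 0.05 together with at least a 2-fold difference. The study does not state whether its p was adjusted. The unadjusted p of limma on log2(value + 1) was used here. Adjustment of p-values was by Benjamini-Hochberg over the 25802 genes tested. *Dtx3l*, *Parp9*, *Parp12*, *Parp3*, *Parp11* and *Parp14* passed it, all higher in the mutant-labelled libraries, with means 6.08 to 11.7 times those of the controls. *Parp2* and the *Plec* and *Parp10* entry were higher by less than 2-fold, and *Parp1* was lower by less than 2-fold. So 6 of 9 genes were past the threshold and higher, against 13.9% of all genes tested, and 0 of 9 were past it and lower, against 10.4%. The 9 genes were chosen with earlier results of these data known, so the counts in this paragraph describe them and test no enrichment. At an adjusted p at or under 0.05 with no limit on the fold, the count was 9 of 9, against 35% of all genes. Without adjustment, 8 had p under 0.05 and were higher and 1 was lower, in limma, edgeR and DESeq2 alike, where limma gave 24.2 and 20.8% of all genes tested. The mutant-labelled values all lay above the control-labelled values in 8 of 9 genes and all below in 1, where the same was found for 25.9 and 23.3% of the genes tested. The median log2 fold change of the 9 genes was 2.67, and that of all genes tested was 0.03. Scaling every library to an equal total put the median of all genes at 0.19 and shifted each gene by about the same amount, and no gene of the 9 changed sides of the threshold under it.

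**Figure D1:**
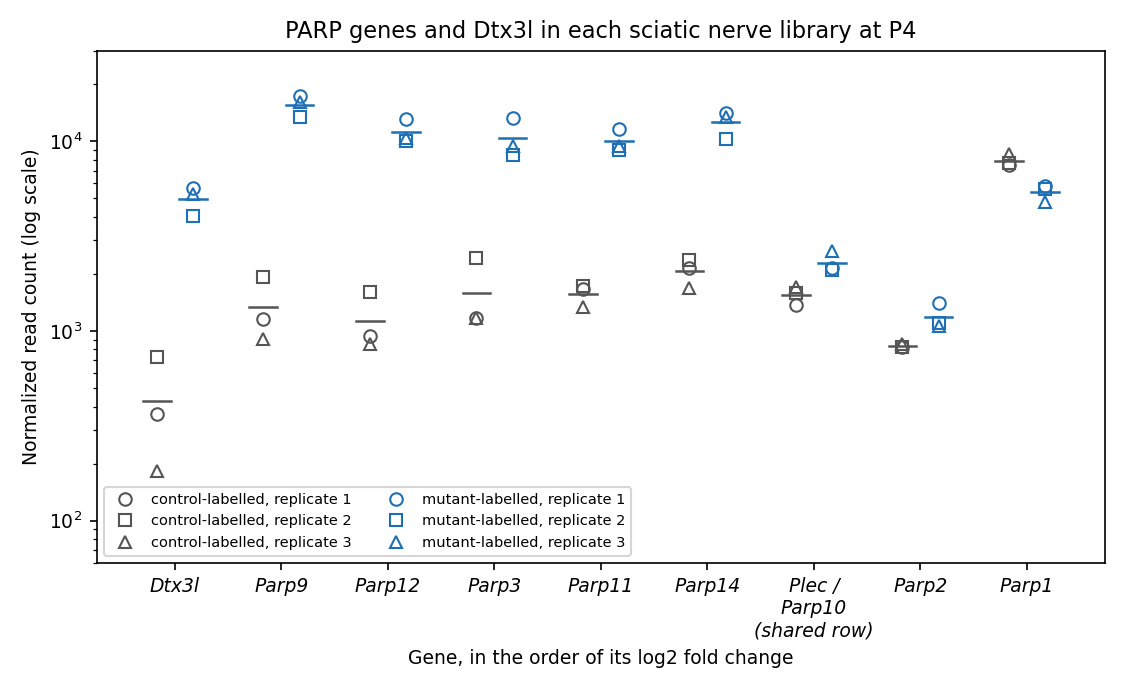
Normalized read counts (log scale, y axis) of the 9 genes in each of the 6 libraries, with genes on the x axis in the order of their log2 fold change. Gray symbols are control-labelled and blue symbols mutant-labelled libraries, the symbol gives the replicate, and a line marks the mean of 3. The groups are apart in every gene, with *Parp1* the only gene whose mutant-labelled values (4764 to 5787) lie below its control-labelled values (7530 to 8533).

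*Parp9* and *Dtx3l*, which form a complex in which DTX3L is the ubiquitin ligase, had the largest log2 fold changes of the 9 genes. *Parp9* (GSMG0014937, chr16:35938470-35972621 in mm10, plus strand) had 1162, 1936 and 906 normalized read counts in the control-labelled libraries and 17297, 13467 and 16095 in the mutant-labelled libraries. The lowest mutant-labelled value was 6.96 times the highest control-labelled value. The log2 fold change was 3.61 (standard error 0.25, limma adjusted p = 2.55e-05). *Dtx3l* (GSMG0015704, chr16:35926512-35939027, minus strand) had 366, 733 and 183.7 normalized read counts in control replicates 1, 2 and 3 and 5655, 4045 and 5259 in mutant replicates 1, 2 and 3. Its controls were the most uneven of the 9 genes, with replicate 2 at 3.99 times replicate 3, yet the groups stayed 5.52-fold apart at their nearest values. The log2 fold change was 3.75 (standard error 0.42, limma adjusted p = 0.000305), and leaving out each library in turn gave 3.25 to 4.24. The genes are on opposite strands and overlap at their starts by 558 bases. In the GENCODE annotation, 458 exon bases are common to both, 9.4% of those of *Parp9* and 8% of those of *Dtx3l*. The cDNA was oriented, but the strand setting of the counting is not given in the sources used here, so reads of this overlap may count for either gene. An entry without a symbol (GSMG0015705) overlaps *Parp9* by 5869 bases on the opposite strand and did not pass the threshold, with 2654 ± 1238 normalized read counts in the control-labelled and 2890 ± 1721 in the mutant-labelled libraries (SD, n = 3).

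*Parp14*, which carries macrodomains that bind ADP-ribose as well as a catalytic domain, lies next to this pair (GSMG0015703, chr16:35832878-35871500, minus strand). Control-labelled values were 2154, 2369 and 1694, and mutant-labelled values 14079, 10255 and 13477. The lowest mutant-labelled value was 4.33 times the highest control-labelled value. On the log2 scale the difference was 2.60 (standard error 0.16, limma adjusted p = 1.6e-05).

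*Parp14*, *Dtx3l* and *Parp9* are neighbors within 139.7 kb of chromosome 16. None of the 6 other named and tested genes that reach into the 150 kb on either side was past the threshold, beside 13.9% of all genes tested past it and higher and 10.4% lower. *Hspbap1*, next to *Parp14*, had a log2 fold change of 0.41 (standard error 0.22, limma adjusted p = 0.18), and *Kpna1*, an importin gene 6125 bases beyond *Parp9*, also had 0.41 (standard error 0.14, adjusted p = 0.0495). *Wdr5b*, *Ccdc58*, *Fam162a* and *Dirc2* had log2 fold changes of 0.49, 0.21, -0.11 and -0.92. *Dirc2* was thus lower by less than 2-fold (standard error 0.12, limma adjusted p = 0.000637). The 3 cluster genes had log2 fold changes from 2.60 to 3.75.

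**Figure D2:**
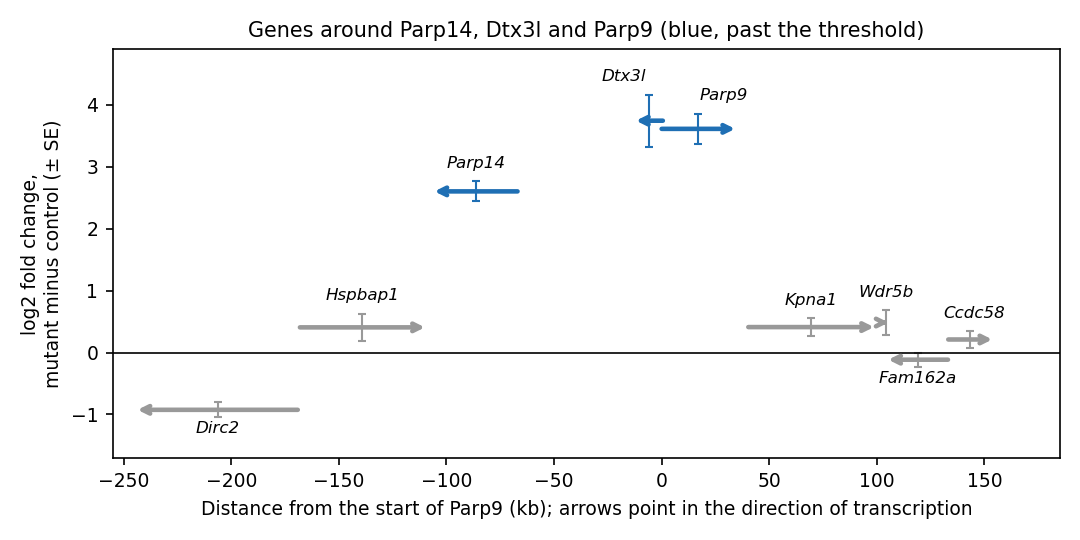
Log2 fold change (y axis, ± standard error of the limma fit) of the tested genes around *Parp9*, drawn as arrows at their position in kb from the start of *Parp9* (x axis) and pointing in the direction of transcription. Blue genes were past the threshold and gray genes were not. *Parp14*, *Dtx3l* and *Parp9* lie between 2.60 and 3.75, and the 6 flanking genes between -0.92 and 0.49.

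*Parp12*, a CCCH zinc finger protein that adds single ADP-ribose units, and *Parp11*, a small member of the family with the same kind of activity, both rose. *Parp12* (GSMG0032915, chr6:39086409-39118353, minus strand) had 944, 1599 and 852 normalized read counts in the control-labelled and 13181, 10025 and 10387 in the mutant-labelled libraries. Its groups were 6.27-fold apart at their nearest values. This was a log2 fold change of 3.35 (standard error 0.23, limma adjusted p = 2.5e-05). The gene 4930599N23Rik starts 120 bases away on the opposite strand and rose too, from 38.1 ± 15.1 to 264 ± 58 (SD, n = 3), which is 2.82 ± 0.40 (standard error) on the log2 scale with a limma adjusted p of 0.000973. On the other side *Tbxas1*, the gene of thromboxane synthase, was past the threshold and lower (log2 fold change -1.25, standard error 0.27, adjusted p = 0.00731).

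*Parp11* (GSMG0032505, chr6:127446838-127494261, plus strand) is the gene with both motif cores in its window, shown above. It had 1667, 1717 and 1331 normalized read counts in control-labelled and 11648, 8973 and 9427 in mutant-labelled nerves. Both groups were tight, with the highest library at 1.29 times the lowest in the control-labelled and 1.30 times in the mutant-labelled group. Its log2 fold change was 2.67 (standard error 0.14, limma adjusted p = 7.84e-06). An entry without a symbol (GSMG0032506) overlaps it by 2330 bases on the same strand and held 8.33 ± 6.53 and 46.1 ± 16.1 normalized read counts (SD, n = 3).

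*Parp3*, the DNA break enzyme of the group, rose as well (GSMG0041258, chr9:106470322-106476950, minus strand). Its values were 1176, 2422 and 1171 in the control-labelled libraries and 13297, 8452 and 9407 in the mutant-labelled libraries. Control replicate 2 stood apart with 2.06 times replicate 1, and the nearest values of the groups were 3.49-fold apart. This gave a log2 fold change of 2.77 (standard error 0.29, limma adjusted p = 0.000205). *Rrp9*, a ribosomal RNA processing gene 356 bases upstream on the other strand, had 1522 ± 163 and 2606 ± 389 normalized read counts and did not reach 2-fold (log2 fold change 0.77, adjusted p = 0.00391).

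*Parp1* and *Parp2*, the enzymes that make long chains at DNA breaks, did not reach the threshold. *Parp1* (GSMG0001150, chr1:180568891-180601253, plus strand) had 7530, 7659 and 8533 normalized read counts in control-labelled and 5787, 5592 and 4764 in mutant-labelled libraries, a mean 0.681 times that of the controls. Its log2 fold change was -0.56 (95% interval -0.80 to -0.32, limma adjusted p = 0.00422), which lies inside the 2-fold limit. In a bulk sample, fewer cells of a type and less RNA per cell cannot be told apart. In the table, *Lin9* spans the whole of *Parp1* on the same strand (32363 bases) and was past the threshold and higher, from 211 ± 62.2 to 539 ± 50.7 (SD, n = 3), which is 1.39 ± 0.25 (standard error) on the log2 scale with a limma adjusted p of 0.00332.

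*Parp2* (GSMG0011521, chr14:50807916-50821302, plus strand) had 824, 828 and 857 normalized read counts in the controls, the closest control values of the 9 genes, and 1405, 1097 and 1062 in the mutants. The groups did not overlap, and mutant replicate 1 was 1.32 times replicate 3. The log2 fold change was 0.49 (95% interval 0.17 to 0.82, limma adjusted p = 0.0261). The adjusted p rose to between 0.0605 and 0.0786 without any single control-labelled library or without mutant replicate 1, and the log2 fold change without mutant replicate 1 was 0.37. *Rpph1*, the RNA of ribonuclease P, lies 145 bases away on the other strand and had uneven values in both groups (1665 ± 587 and 2834 ± 1505).

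*Parp10* has no value of its own. Its entry also covers *Plec*, the gene of the large linker protein plectin (GSMG0014157, chr15:76170974-76243441, minus strand), and reads cannot be apportioned between them. The shared entry had 1374, 1579 and 1709 normalized read counts in the control-labelled and 2141, 2085 and 2655 in the mutant-labelled libraries. The log2 fold change was 0.56 (95% interval 0.25 to 0.87, limma adjusted p = 0.0137), and eBayes without trend gave an adjusted p of 0.0594. *Parp10* is therefore counted among the genes below 2-fold for the entry alone.

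**Figure D3:**
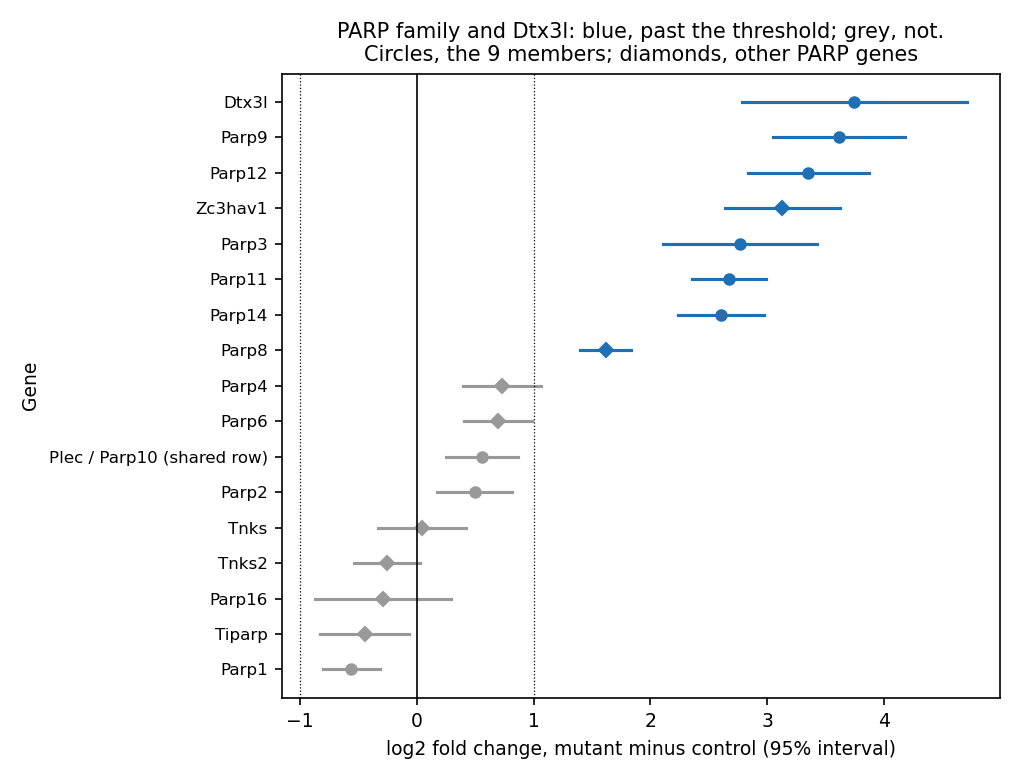
Log2 fold change, mutant minus control (x axis), with the 95% interval of the limma fit for the 9 genes (circles) and the 8 other PARP genes (diamonds), 1 gene per line of the y axis. Blue genes were past the threshold, and dotted lines mark 2-fold. The 8 genes past the threshold lie between 1.62 and 3.75, and *Parp1* is the lowest at -0.56.

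The 8 genes with their own value were put in the order of their fold changes, and the 7 pairs of neighbors were set side by side as the log2 ratio of both genes in each library. These pairs follow from the measured fold changes, and an exact permutation test of 3 libraries against 3 cannot give a p under 0.1, so the ratios are a description. The fold changes of *Dtx3l* and *Parp9* differed by 0.13 on the log2 scale, those of *Parp3* and *Parp11* by 0.10 and those of *Parp11* and *Parp14* by 0.07, and in these pairs the ratios of control-labelled and mutant-labelled libraries overlapped. The ratios did not overlap for *Parp9* over *Parp12* (difference 0.26), *Parp12* over *Parp3* (0.58), *Parp14* over *Parp2* (2.11) and *Parp2* over *Parp1* (1.05).

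The 6 raised genes had the same order of libraries within each label. In 6 of 6, control replicate 2 was the highest and replicate 3 the lowest of the controls, and mutant replicate 1 was the highest and replicate 2 the lowest of the mutants. *Adar* had the same order. Among all genes tested, 13.2% had this order in the controls, 18.4% in the mutants and 2.48% in both, and among the genes past the threshold and higher 3.6% had both. The ratio of control replicate 2 to replicate 3 was 3.99 in *Dtx3l*, 2.14 in *Parp9*, 2.07 in *Parp3*, 1.88 in *Parp12*, 1.40 in *Parp14* and 1.29 in *Parp11*. Control replicate 2 was between the other controls in *Parp1*, *Parp2* and the *Plec* and *Parp10* entry, whose highest control was 1.04 to 1.24 times the lowest. Neither order is limited to the 6 raised genes. *Parp6*, higher by less than 2-fold, and *Parp16*, which was not higher, shared the control order. *Parp4*, higher by less than 2-fold, shared the mutant order. These orders are a description of 3 libraries per label, with no test.

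**Figure D4:**
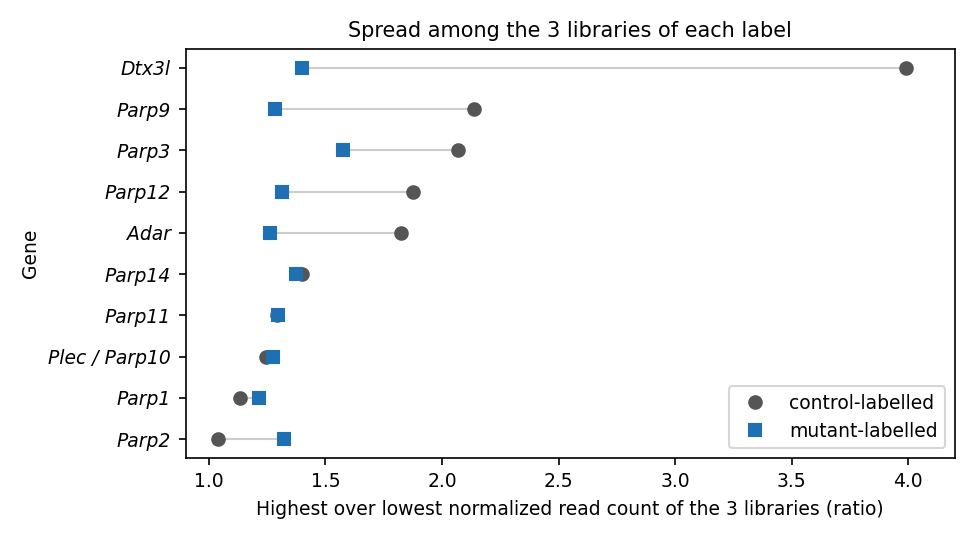
Ratio of the highest to the lowest normalized read count among the 3 libraries of a label (x axis) for the 9 genes and *Adar* (y axis), with gray circles for control-labelled and blue squares for mutant-labelled libraries. Control-labelled libraries reach 3.99 in *Dtx3l*, while the largest ratio among mutant-labelled libraries is 1.57, in *Parp3*.

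Markers of other cell types were set beside these values. The 6 skeletal muscle markers summed to 31203, 5727 and 23702 normalized read counts in control replicates 1, 2 and 3 and to 90680, 39125 and 301889 in mutant replicates 1, 2 and 3, and 5 of 6 were past the threshold and higher. Control replicate 2, the control highest in all 6 raised genes, had the lowest muscle sum, and mutant replicate 3, with the highest muscle sum, was in the middle of its group in all 6. The 16 leukocyte markers summed to 11802 to 15501 in the control-labelled and 6043 to 8190 in the mutant-labelled libraries. Of the 15 tested, 3 were past the threshold and higher (*Ptprc*, *Aif1* and *Ncr1*) and 4 lower (*Csf1r*, *Cx3cr1*, *Mrc1* and *Cd163*), and *Cd3d* and *Ncr1* were at 0 in all controls. *Ncr1* was tested only through its mutant-labelled reads, so its call is not read as a rise. The 6 endothelial markers had log2 fold changes from 0.16 (*Cdh5*) to 0.81 (*Kdr*), and their sums overlapped (12856 to 19857 and 18574 to 24973). Of the SC markers, 4 of 6 were past the threshold and lower, while *Sox10* and *Cdh19* were not past it (log2 fold changes -0.71 and 0.13). Among 5 fibroblast, 3 perineurial and 5 erythroid markers, 2, 1 and 4 were past it and lower and none was higher. The part of these shifts in the PARP values was not tested.

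Among the other 8 PARP genes of the mouse, *Zc3hav1* and *Parp8* rose and none was past the threshold and lower. *Zc3hav1*, whose protein binds viral RNA, had 822, 1409 and 900 normalized read counts in the control-labelled and 10536, 7315 and 9062 in the mutant-labelled libraries (log2 fold change 3.13, standard error 0.21, limma adjusted p = 2.5e-05). Its control order differed from that of the 6 raised genes at the low end, where replicate 1 was the lowest. *Parp8* had 1029, 1102 and 1043 against 3243, 3193 and 3299, very even values 1.62 ± 0.10 apart on the log2 scale (standard error). The other 6 were not past the threshold. *Parp4*, the vault particle PARP, and *Parp6* had log2 fold changes of 0.73 and 0.70 (adjusted p = 0.00557 and 0.00361). *Tiparp* (also called PARP7, a target of the aryl hydrocarbon receptor) had -0.45 (adjusted p = 0.0678), and the tankyrases *Tnks* and *Tnks2*, which build chains on telomere and Wnt pathway proteins, had 0.05 and -0.25. *Parp16*, the family member of the endoplasmic reticulum, had -0.29. The count of 2 of 8 past the threshold and higher stands beside 13.9% of all genes tested, and the median of the list was 0.37. *Tnks* changed sign with the 75th percentile scaling, and its direction is not read.

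ADP-ribose is taken off again by hydrolases, and of 7 such genes 1 was past the threshold and higher and 1 was past it and lower, counts near the 13.9 and 10.4% of all genes tested. *Macrod2*, a macrodomain hydrolase, was past the threshold and lower, with 1284, 1483 and 1476 normalized read counts in the control-labelled and 472, 538 and 374 in the mutant-labelled libraries (log2 fold change -1.63, standard error 0.16, limma adjusted p = 0.000177). *Adprhl1*, a relative of the hydrolases that is expressed in heart and muscle, was past the unadjusted threshold and higher, with 51.1, 4.72 and 27.9 against 56, 50.2 and 256. Its highest value is that of mutant replicate 3, the library with the highest muscle sum, and its adjusted p was 0.105. Without control replicate 2 its log2 fold change moved from 2.15 to 1.23, and without mutant replicate 3 to 1.40 (limma adjusted p = 0.27 and 0.317). It was also no longer past the threshold without control replicate 3 or mutant replicate 1. *Parg*, the main enzyme that degrades ADP-ribose chains, had a log2 fold change of 0.06 (95% interval -0.20 to 0.31). The median of the 7 genes was 0.10.

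Of 8 partners of PARP1 in the repair of DNA strand breaks, 0 were past the threshold by limma, beside 13.9% of all genes tested past it and higher and 10.4% lower, and edgeR and DESeq2 also gave 0. At an unadjusted p under 0.05, 3 were higher and 1 was lower with each tool, beside 24.2 and 20.8% of all genes by limma. A list of 8 genes is too small to compare these shares. *Timeless*, whose protein binds PARP1, came nearest with 1696, 2098 and 2147 against 3812, 4252 and 2836 (log2 fold change 0.86, standard error 0.17, adjusted p = 0.00468). It crossed the 2-fold limit without mutant replicate 3 (1.03) and with the libraries scaled to the same total (1.03). *Polb*, the repair polymerase, had 0.54 (adjusted p = 0.00514), while *Hpf1*, the cofactor that directs PARP1 to serine, had 0.41 (adjusted p = 0.0635). *Xrcc1*, *Lig3*, *Aptx* and *Aplf* lay between -0.08 and 0.13, and *Chd1l* had -0.43 (adjusted p = 0.0561). The median of the 8 genes was 0.09.

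NAD+ is the substrate of every PARP enzyme, and by limma 2 of the 9 genes of its synthesis were past the threshold and higher and 1 was past it and lower, beside 13.9 and 10.4% of all genes tested. *Nampt*, the rate-limiting enzyme of NAD+ salvage, rose from 2815, 2889 and 2481 normalized read counts to 9220, 7149 and 8689 (1.61 ± 0.12 on the log2 scale, standard error, limma adjusted p = 3.97e-05). Both of its orders, control replicate 2 above 1 above 3 and mutant replicate 1 above 3 above 2, were those of the 6 raised genes among the 9. *Nmnat2*, which completes NAD+ synthesis in axons, rose from 149, 235 and 295 to 737, 519 and 814 (1.63 ± 0.29 on the log2 scale, standard error, limma adjusted p = 0.00288). *Nmrk1*, the kinase of nicotinamide riboside, was past the threshold and lower, from 462, 433 and 416 to 186.9, 106 and 152 (-1.59 ± 0.25 on the log2 scale, standard error, limma adjusted p = 0.00156). The other 6 synthesis genes were not past it by limma, of which *Nmrk2*, a gene of muscle, had no reads in any control and only 7.27, 0 and 29.7 in the mutants. *Nmrk2* was past the threshold in edgeR and DESeq2 (adjusted p = 0.0873 and 0.0494), but it was tested only through its mutant-labelled reads, so this call is not read as a rise. *Nmrk2* and *Nmnat3* both passed the threshold without mutant replicate 2, at limma adjusted p-values of 0.0277 and 0.0808. The median of the 9 genes was 0.34.

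Of 7 other consumers of NAD+, 2 were past the threshold and higher and 2 lower by limma, beside 13.9 and 10.4% of all genes tested, and edgeR and DESeq2 counted 1 as higher and 2 as lower. *Bst1*, an ectoenzyme, had 2.22, 10.4 and 10.1 normalized read counts in control-labelled and 67.6, 55 and 34.6 in mutant-labelled nerves (log2 fold change 2.80, standard error 0.69, limma adjusted p = 0.0143). *Bst1* passed the filter on low values only through the mutant-labelled libraries, and its count among the higher genes supports nothing. Its relative *Cd38* had 141, 70.9 and 134 against 244, 231 and 210 (log2 fold change 1.04, standard error 0.31, adjusted p = 0.0327), just past 2-fold. It missed 2-fold without control replicate 2 (0.72) or mutant replicate 1 (0.99), and in edgeR and DESeq2 (0.99 in both). *Sirt2*, a deacetylase abundant in myelinating glia, had 7830, 9465 and 9110 against 3743, 2405 and 2929 (log2 fold change -1.56, standard error 0.16, adjusted p = 0.000195), beside the lower SC markers given above. *Sarm1*, the NAD+ hydrolase of axon degeneration, had 113, 202 and 158 against 66.9, 71.4 and 61.3 (log2 fold change -1.20, standard error 0.32, adjusted p = 0.0195). The median of the 7 genes was 0.10.

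*Dtx1*, *Dtx2*, *Dtx3* and *Dtx4* are the relatives of *Dtx3l* in the deltex family of ubiquitin ligases. By limma, edgeR and DESeq2, 0 of the 4 were past the threshold, a count too small to be set against the 13.9 and 10.4% of all genes tested, and 1 had an unadjusted p under 0.05 with each tool. That gene, *Dtx2*, had 1586, 1523 and 1475 normalized read counts in the control-labelled and 2037, 2063 and 1803 in the mutant-labelled libraries (log2 fold change 0.36, standard error 0.11, limma adjusted p = 0.0292). *Dtx3* had -0.13, *Dtx4* 0.05 and *Dtx1* 0.01, and the median of the 4 was 0.03.

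**Figure D5:**
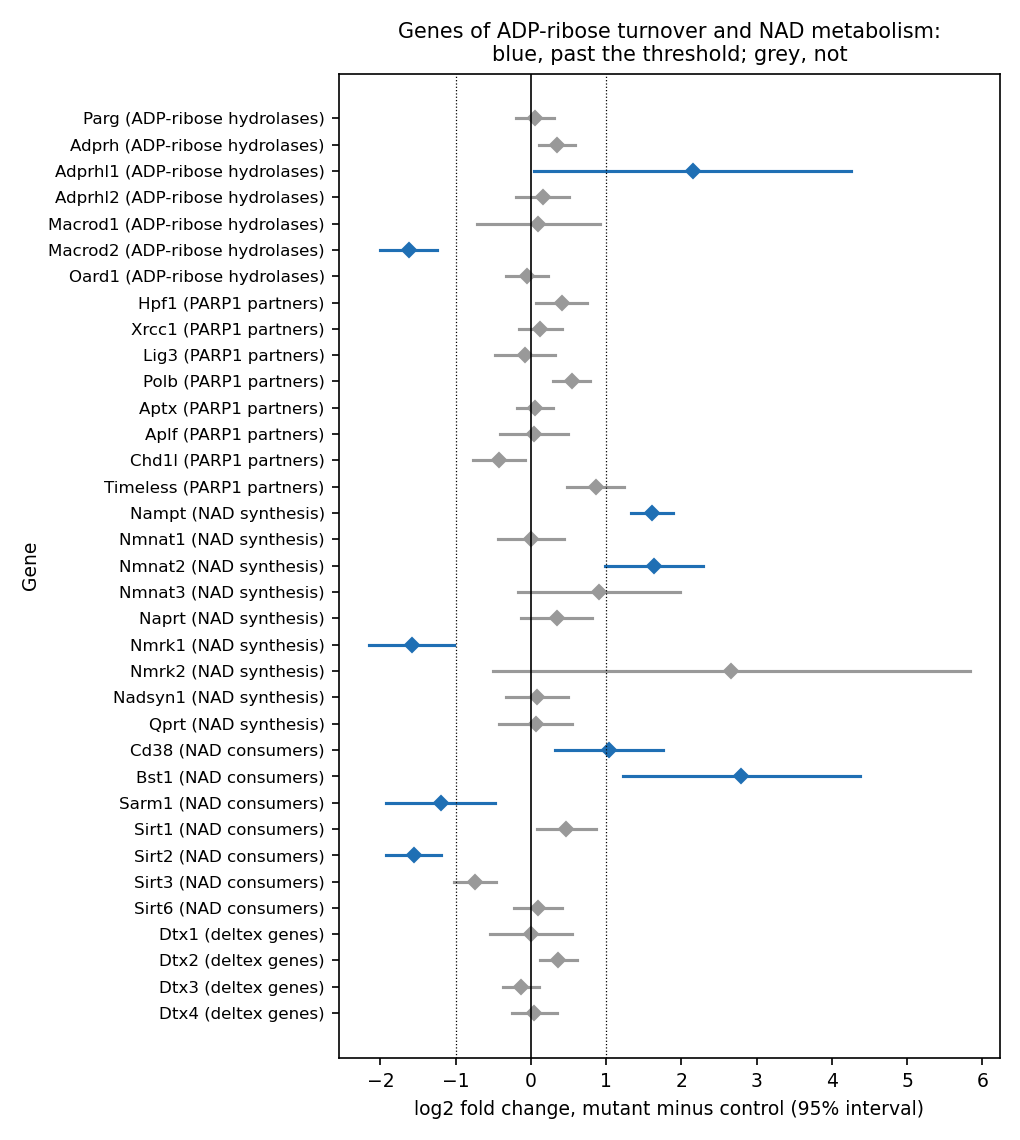
Log2 fold change, mutant minus control (x axis), with the 95% interval of the limma fit for genes of ADP-ribose removal, PARP1 partners, NAD+ synthesis, other NAD+ consumers and deltex ligases (y axis, list in parentheses). Blue genes were past the threshold and gray genes were not. The widest intervals belong to *Nmrk2*, *Adprhl1* and *Bst1*, genes with few reads, and no PARP1 partner or deltex gene is blue.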

How the data were processed

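From each nerve, poly-A RNA was made into oriented cDNA and sequenced. The authors mapped the reads with STAR 2.4.0 on mm10, counted those on constitutive regions of FAST DB genes and deposited the counts divided by DESeq2 size factors, a signal per gene and library. Dividing by the value of 1 read gave whole numbers (tolerance 0.1) for 100% of the values of each library, so whole reads were recovered for edgeR and DESeq2.

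log2(value + 1) was fitted with limma (lmFit, eBayes with trend), mutant minus control, for the 25802 of 59485 genes with a mean of at least 10 in at least 1 group. The pseudocount understates changes of genes with few reads. The expression filter of the study, which needs intergenic reads, was not applied. Groups and replicate numbers are those of the sample titles, and errors are SDs or limma standard errors over 3 animals per group. The 9 genes and the lists were chosen with earlier results of these data known. Named genes are those of the lists, the neighbors in the deposited coordinates and, for each raised gene, the 2 genes nearest in profile. Some genes of the lists as first written are not analysed here, and the list sizes given are without them. Scripts were tested on simulated data. Alternatives were 12 other settings and each of 6 libraries left out. R 4.3.3, limma 3.58.1, edgeR 4.0.16, DESeq2 1.42.0, Python 3.11.15, numpy 2.4.6, scipy 1.17.1 and matplotlib 3.10.9 were used, with GENCODE exons and RefSeq promoter windows.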

Additional observations from a re-analysis of the deposited data

How the results depend on the processing

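Under all 18 alternatives, 6 of the 9 genes and 2 of the 8 other PARP genes were past the threshold and 0 of the 4 deltex genes were, and each of the 9 genes kept its direction. The hydrolase count of 2 became 1, by the loss of *Adprhl1*, with a pseudocount of 0.1, a minimum mean of 50, the same 75th percentile, eBayes without trend and an adjusted p, and leaving out single libraries gave 1 to 2. The count of PARP1 partners went from 0 to 1 (*Timeless*) with the same total, and from 0 to 1 over the left-out libraries. *Tnks* had -0.020 with the same 75th percentile and -0.10 to 0.17 without single libraries, being -0.04 without control replicate 2 and -0.10 without mutant replicate 3. The count over both NAD+ lists was 6 to 9, and that of all genes 4706 to 6892, the low end with a minimum mean of 50. edgeR gave 5805 genes, 5598 of them shared with limma, and DESeq2 6026, of which 5756 were shared. eBayes without trend gave *Parp2* an adjusted p of 0.0691. With the replicate block, 6149 genes were past the threshold, 6 of the 9 genes were, and the adjusted p of *Parp2* was 0.0529. Deviations of same-numbered libraries correlated at -0.06, -0.06 and 0.01, and the labels tie the numbers to no shared litter, so the libraries were not treated as paired. The depth, at least 145 reads behind each value of the 9 genes, limits *Bst1*, *Nmrk2* and *Adprhl1* more than the PARP genes.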

Other observations

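The genes nearest in profile to each raised gene were found by the root-mean-square difference of log2(value + 1) over the 6 libraries, each gene centered on its control mean, among genes with a symbol. *Trim21* was nearest to *Parp9* (0.086 on the log2 scale) and *Sema4f* next (0.17). *Ifi35* and *Ube2l6* were nearest to *Parp12* (0.095 and 0.12), *Rnf135* and *Znfx1* to *Parp11* (0.071 and 0.096), and *Csf1* and *Hpse* to *Parp14* (0.081 and 0.10). *Parp3* was nearest to *Tapbp* and *Trim12c* (0.16 and 0.17), and *Dtx3l*, with its uneven controls, to *Uba7* and *Gbp7* (0.17 and 0.24). Their log2 fold changes were 2.57 to 4.05. These genes were picked for their likeness, so the values describe 6 libraries and carry no test.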
